A study of Homo sapiens with 42 samples.

Results

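Serpins are a family of proteins that share one fold. Most of them trap a target protease by offering it a reactive loop, which the enzyme cleaves and on which it is then locked as an inactive covalent complex. A minority inhibit nothing and instead carry hormones, act as chaperones or signal to cells. Most clades are secreted and control clotting, fibrinolysis and inflammation, whereas clade B members mostly stay inside the cell. Melanoma cells are known to secrete several serpins and the proteases these act on.

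The genes described here are the 31 of 19775 genes on the array whose annotated symbol begins with SERPIN followed by a letter and a digit and holds no hyphen. They are read by 49 probe sets, and the probe set of a gene that was brightest on average over the 42 arrays represents it. A probe set that names both SERPINB3 and SERPINB4 was left out. SERPINB3 and SERPINB4 are near-identical copies, so the signals of these genes are uncertain. In 6 genes (SERPINE2, SERPINH1, SERPINB1, SERPINB7, SERPINB8 and SERPINF1) the group mean lay at or above the median of all signals, 31.9 or a log2 of 5.0, in every group. Another 13 reached it in some groups and 12 in none.

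The arrays hold RNA of A375 cells, an established human line of melanoma whose BRAF gene is mutated, after siRNA transfection for 48 hours and then drug exposure for 26 hours. The 14 groups of 3 arrays were p53 siRNA with MLN4924 (650 nM), Nutlin (5 uM), daunorubicin (100 nM) or DMSO (0.065%, a first and a second set), CDT1 siRNA with MLN4924 or DMSO, BRCA1 siRNA with MLN4924 or DMSO, and GL2 siRNA with the same 5 exposures as p53 siRNA. GL2 targets firefly luciferase and serves as the control siRNA. MLN4924 blocks the NEDD8-activating enzyme and with it the cullin-RING ubiquitin ligases, Nutlin frees p53 from MDM2, and daunorubicin breaks DNA through topoisomerase II. All groups share the 1 cell line, and nothing in the labels says that replicates were separate cultures, so the spread behind each p-value is that of these samples alone and may be technical. In such bulk RNA, fewer cells that express a gene and less RNA per cell cannot be told apart.

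Promoters of the members that moved most with MLN4924 are shown because each group's promoters can be set against the motifs of stress-responsive factors. RefSeq promoters (GRCh38.p14, 250 bases before to 50 after a start) were given for 23 of the 31 genes, 33 promoters in all. Capitals mark matches to heat shock pairs, a STAT palindrome or an AP-1 site, all searched on both strands. The first 3 belong to genes that were lower with MLN4924, and the last 3 to genes that were higher.
SERPINA3, chr14:94612141-94612440, plus strand: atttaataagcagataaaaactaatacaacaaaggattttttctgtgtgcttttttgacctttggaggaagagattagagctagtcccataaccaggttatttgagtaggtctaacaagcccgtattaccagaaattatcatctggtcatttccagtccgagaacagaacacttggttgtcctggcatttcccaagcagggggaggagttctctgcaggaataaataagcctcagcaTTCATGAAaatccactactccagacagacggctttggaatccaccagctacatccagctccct
SERPINA5, chr14:94581176-94581475, plus strand: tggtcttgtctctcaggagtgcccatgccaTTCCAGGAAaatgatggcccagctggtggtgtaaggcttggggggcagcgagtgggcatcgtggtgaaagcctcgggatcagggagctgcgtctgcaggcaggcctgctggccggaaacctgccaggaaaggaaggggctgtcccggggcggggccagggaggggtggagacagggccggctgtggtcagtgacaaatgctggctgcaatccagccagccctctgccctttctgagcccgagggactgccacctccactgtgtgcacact
SERPINH1, chr11:75562003-75562302, plus strand: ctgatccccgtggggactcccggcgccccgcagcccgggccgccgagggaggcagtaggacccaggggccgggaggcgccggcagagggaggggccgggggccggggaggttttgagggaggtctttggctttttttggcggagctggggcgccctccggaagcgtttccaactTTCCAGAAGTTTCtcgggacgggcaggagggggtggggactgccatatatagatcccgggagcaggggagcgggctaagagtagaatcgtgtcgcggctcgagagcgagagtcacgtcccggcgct
SERPINB7, chr18:63775168-63775467, plus strand: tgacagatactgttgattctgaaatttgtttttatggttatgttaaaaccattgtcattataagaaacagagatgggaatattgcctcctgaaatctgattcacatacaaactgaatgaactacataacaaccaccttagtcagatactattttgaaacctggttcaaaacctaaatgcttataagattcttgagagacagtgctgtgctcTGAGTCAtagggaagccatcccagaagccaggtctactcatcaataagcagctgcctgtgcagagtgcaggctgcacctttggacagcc
SERPINB7, chr18:63777531-63777830, plus strand: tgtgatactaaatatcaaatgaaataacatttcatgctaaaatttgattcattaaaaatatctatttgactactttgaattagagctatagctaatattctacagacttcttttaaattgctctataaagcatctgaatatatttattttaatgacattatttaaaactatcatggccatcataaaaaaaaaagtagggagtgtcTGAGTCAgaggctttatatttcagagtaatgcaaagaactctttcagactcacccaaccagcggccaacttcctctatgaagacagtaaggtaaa
SERPINB5, chr18:63476708-63477007, plus strand: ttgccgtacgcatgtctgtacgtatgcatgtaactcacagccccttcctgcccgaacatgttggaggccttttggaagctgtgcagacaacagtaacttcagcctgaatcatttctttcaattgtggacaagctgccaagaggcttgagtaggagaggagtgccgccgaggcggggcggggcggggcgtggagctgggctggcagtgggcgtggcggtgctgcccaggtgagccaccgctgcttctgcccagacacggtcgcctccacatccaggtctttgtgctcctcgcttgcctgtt

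The inverted heat shock pair TTCNNGAA is present in the SERPINH1 promoter as TTCCAGAA and in the SERPINA3 promoter as TTCATGAA. It occurs in 3 of the 33 serpin promoters and in 7.74% of 35116 promoters of this length. In SERPINH1 it overlaps an everted pair, GAANNTTC, in the form GAAGTTTC, which is found in 4 serpin promoters and 6.77% of all. The AP-1 letters TGACTCA, read as TGAGTCA on the strand shown, stand in both SERPINB7 promoters printed here, in 4 serpin promoters and in 4.95% of all promoters. TTCNNNGAA, a STAT palindrome, is present in the SERPINA5 promoter as TTCCAGGAA, in 8 serpin promoters and in 7.66% of all. The strict core pair of the p53 response element, CATG and again CATG with 6 bases between them, is in 0 of the 33 serpin promoters and in 0.373% of all. The antioxidant response core TGACNNNGC (5 serpin promoters, 13.3% of all) and the CCAAT box (10 and 34.6%) have no match in the windows printed. SERPINB7 and SERPINH1 each have another RefSeq promoter, which holds an everted heat shock pair and a STAT palindrome in SERPINB7 and a CCAAT box in SERPINH1. No searched motif was found in the SERPINB5 window. A match describes letters in a window and not a bound factor.

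Before the serpins, the siRNA targets were read in each array. CDT1 lay at 6.51 to 6.77 in CDT1 siRNA with DMSO, against 8.56 to 9.16 in the GL2 DMSO sets. BRCA1 lay at 5.82 to 5.98 in BRCA1 siRNA with DMSO, against 8.52 to 8.95 in the GL2 DMSO sets. CDKN1A, the p53 target that encodes p21, was 6.48 to 7.57 in the p53 siRNA DMSO sets, against 9.01 to 9.25 in the GL2 sets. With MLN4924, Nutlin and daunorubicin it was 7.14 to 7.89, 8.88 to 9.49 and 9.88 to 10.05 in p53 siRNA cells. GL2 cells had 11.67 to 11.74, 12.33 to 12.48 and 11.74 to 12.01 in the same order. How complete the p53 depletion was under the drugs was not tested. The library labelled BRCA1 siRNA with MLN4924, replicate 3, had BRCA1 at 8.18 while its fellow replicates had 4.93 and 5.28. The library labelled GL2 with MLN4924, replicate 3, had BRCA1 at 4.70 while its fellow replicates had 7.95 and 8.24. CDT1 was 8.61 in the former library, against 7.27 and 7.31 in its fellows. In the latter it was 7.27, against 8.86 and 8.81. Both libraries were kept as labelled. An actin 5' to 3' signal ratio of 0.0118 set apart replicate 1 of p53 siRNA with daunorubicin, against 0.649 to 0.945 on the other 41 arrays. These 3 are called the doubted libraries below, and a value without them is given where it alters a call. Of 13 melanocyte genes measured, 6 (MITF, SOX10, S100B, S100A1, RAB27A and PAX3) were at or above the median signal in every group and 5, PMEL and MLANA among them, in none. Their summed signal ran from 1216 with MLN4924 in p53 siRNA cells to 3468 with Nutlin in GL2 cells. Of 14 hepatocyte genes, CYP3A4 was at or above it in every group and 10 including ALB and APOA1 in none, and their summed signal ran from 280 with MLN4924 in p53 siRNA cells to 511 with daunorubicin in GL2 cells. The group means of SERPINA1 were lowest and highest in the same groups. The other marker lists were 10 keratinocyte and epithelial genes (4 in every group, 4 in none, summed signal 4242 with Nutlin to 7055 with MLN4924, both in p53 siRNA cells), 9 fibroblast genes (3 in every group, 3 in none, lowest at 504 for GL2 with DMSO, first set, and highest at 965 for BRCA1 siRNA with DMSO) and 6 leukocyte genes (LYZ and ITGAM in every group, PTPRC, CD3E and CD14 in none, 184 with MLN4924 in p53 siRNA cells to 794 in BRCA1 siRNA with DMSO). The part of these markers in any serpin result was not tested.

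Changes below are differences of log2 signal ± the standard error of limma's fit over all 14 groups, with the median gene of every array set to the same value. A gene is called where its p, adjusted by Benjamini-Hochberg for the 19775 genes, is under 0.05 and it changed at least 1.5-fold. MLN4924 in p53 and GL2 cells was set against both DMSO sets together, Nutlin and daunorubicin against the first set, and MLN4924 in CDT1 and BRCA1 siRNA cells against DMSO of the same siRNA. For MLN4924 that centring shifted every change by 0.42 in p53, 0.11 in CDT1, 0.18 in BRCA1 and 0.18 in GL2 siRNA cells. Values are thus given relative to the median gene.

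**Figure D1:**
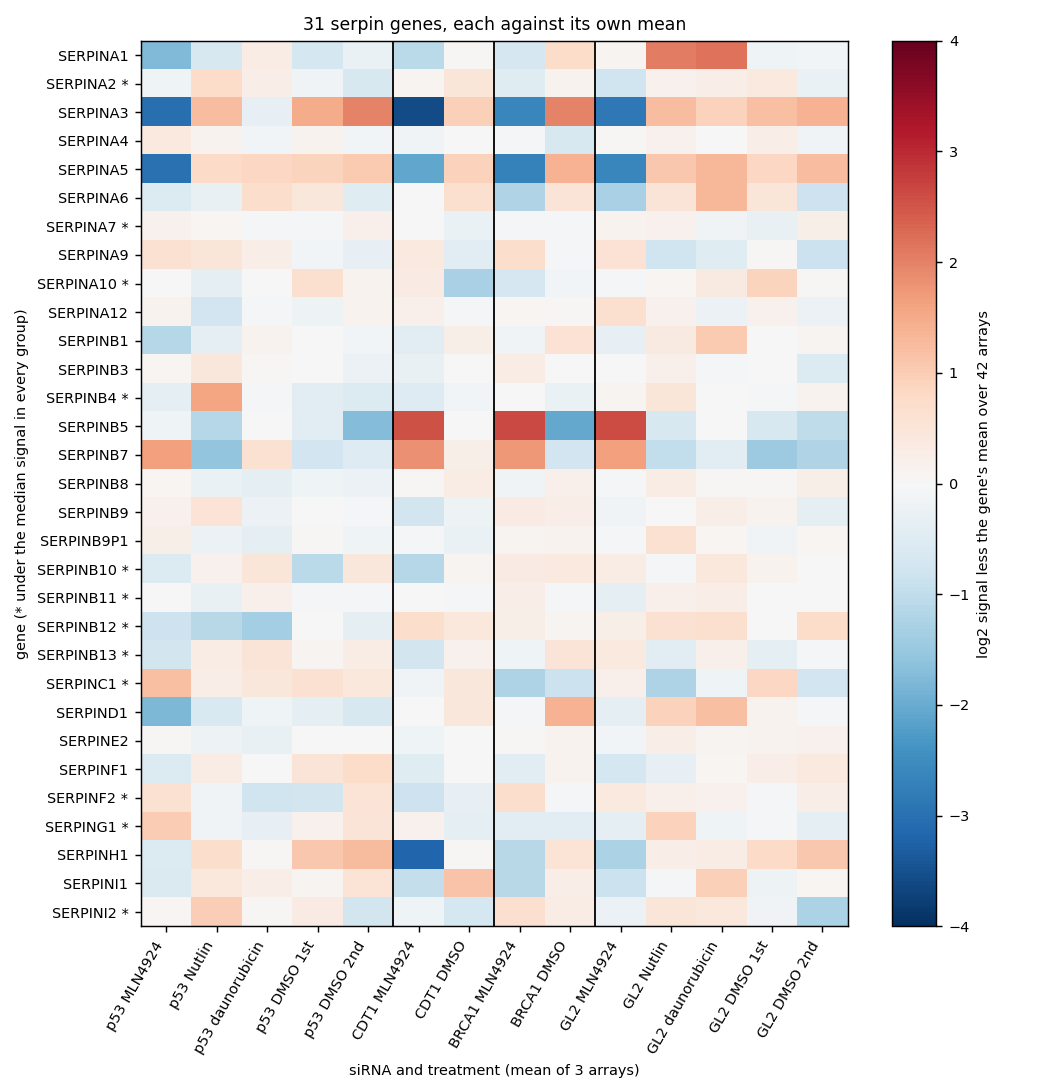
Each row is a serpin gene and each column a group of 3 arrays, and colour gives the group's mean log2 signal less the gene's own mean over 42 arrays. SERPINA3, SERPINA5, SERPINH1 and SERPINI1 are blue under MLN4924 with all 4 siRNAs, SERPINB7 is red there, and SERPINB5 is red there except in p53 siRNA cells.

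MLN4924 lowered several secreted serpins and a collagen chaperone and raised a pair of clade B genes. The antiproteases SERPINA3 and SERPINA5, the collagen chaperone SERPINH1 and neuroserpin (SERPINI1) were called lower, and SERPINB7 higher, under all 4 siRNAs. SERPINB5, the gene of maspin, was called higher under CDT1, BRCA1 and GL2 siRNA. In p53 siRNA cells 1 serpin was called higher and 8 lower of 31 (29.0%), where 25.4% of all genes were called. Under CDT1 siRNA 2 were higher and 6 lower (25.8%, against 10.6% of all genes), and under BRCA1 siRNA 2 were higher and 8 lower (32.3%, against 16.9%). GL2 cells had 3 higher and 6 lower (29.0%, against 17.2%). Of all genes, 17.8% were called higher and 7.60% lower in p53 siRNA cells, 5.93% and 4.63% under CDT1 siRNA, 9.79% and 7.15% under BRCA1 siRNA, and 10.2% and 7.06% in GL2 cells. The balance over all genes turns with the scaling. As deposited, 1054 genes were higher and 3450 lower in p53, 806 and 1225 in CDT1, 1000 and 1977 in BRCA1 and 1125 and 2152 in GL2 siRNA cells. Serpins then numbered 1 higher and 9 lower, 2 and 7, 2 and 9, and 2 and 6. The median change over the 31 serpins was 0.10 in p53, -0.40 in CDT1, -0.05 in BRCA1 and -0.02 in GL2 siRNA cells, and over all genes 0.20, 0.10, 0.16 and 0.08. In all, 12 serpins were called in at least 1 of these 4 comparisons, and 0 were called in opposite directions. The p53 and GL2 comparisons have 6 control arrays each and the CDT1 and BRCA1 comparisons 3.

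SERPINA3 encodes alpha-1-antichymotrypsin, an acute-phase inhibitor of cathepsin G and chymotrypsin-like enzymes. With MLN4924 its log2 signal was 4.59, 4.29 and 5.25 in p53 siRNA cells, against 9.32, 8.85 and 9.45 in the first and 9.69, 9.66 and 9.83 in the second DMSO set. For GL2 cells the signal was 4.41, 4.87 and 5.31 with MLN4924, against 8.92, 8.93 and 8.93 in the first and 9.33, 8.90 and 9.11 in the second DMSO set. CDT1 siRNA cells had 4.55, 3.81 and 4.13 with MLN4924, against 8.97, 8.42 and 8.71 with DMSO, and BRCA1 siRNA cells 5.35, 5.44 and 4.59 with MLN4924, against 9.89, 9.46 and 9.84 with DMSO. All 12 MLN4924 arrays lay at 3.81 to 5.44, and the other 30 arrays at 7.0 to 9.89, with no overlap. The change was -4.76 ± 0.23 in p53, -4.54 ± 0.27 in CDT1, -4.61 ± 0.27 in BRCA1 and -4.16 ± 0.23 in GL2 siRNA cells, a fall of 27-, 23.2-, 24.3- and 17.9-fold. Adjusted p was 5.44e-16, 2.25e-13, 3.75e-14 and 1.24e-14. With MLN4924 the group mean lay at or under the median of all signals except in BRCA1 siRNA cells, so the folds are imprecise there. No call was made for a difference in this change between p53 and GL2 siRNA (-0.60 ± 0.33, 95% interval -1.27 to 0.07).

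SERPINA5, the protein C inhibitor, lies next to SERPINA3 on chromosome 14 among the 9 clade A members read here at that locus. Its signal with MLN4924 was 2.21, 2.90 and 2.53 in p53, 4.22, 3.51 and 2.63 in CDT1, 3.30, 2.63 and 2.58 in BRCA1 and 3.74, 2.30 and 2.72 in GL2 siRNA cells. On the other 30 arrays it stayed at 6.12 to 7.06, above the highest MLN4924 array at 4.22. SERPINA5 changed by -3.94 ± 0.25, -3.0 ± 0.29, -4.09 ± 0.29 and -3.64 ± 0.25 with MLN4924 in p53, CDT1, BRCA1 and GL2 siRNA cells (adjusted p 1.89e-13, 5.89e-09, 3.66e-12 and 1.48e-12). These MLN4924 groups all had means under the median of all signals. The next member along the locus, SERPINA4 (kallistatin), changed by 0.38 ± 0.22, -0.11 ± 0.26, 0.56 ± 0.26 and -0.02 ± 0.22 in the same order and was not called. Among the members read here the locus order is SERPINA10, SERPINA6, SERPINA2, SERPINA1, SERPINA9, SERPINA12, SERPINA4, SERPINA5 and SERPINA3.

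SERPINH1 encodes HSP47, the chaperone of the endoplasmic reticulum that folds procollagen and inhibits no protease. MLN4924 arrays of p53 siRNA cells had 7.64, 7.80 and 7.70, against 9.51, 9.28 and 9.19 in the first and 9.44, 9.48 and 9.61 in the second DMSO set. In CDT1 siRNA cells SERPINH1 had 4.11, 5.78 and 5.33 with MLN4924, against 8.34, 8.23 and 8.29 with DMSO. BRCA1 siRNA cells showed 7.19, 7.30 and 6.94 with MLN4924, against 8.96, 8.68 and 8.79 with DMSO. GL2 cells showed 6.99, 6.83 and 7.18 with MLN4924, against 8.90, 9.08 and 9.05 in the first and 9.37, 9.30 and 9.30 in the second DMSO set. None of these groups overlapped. The change was -1.71 ± 0.19 in p53, -3.21 ± 0.22 in CDT1, -1.67 ± 0.22 in BRCA1 and -2.17 ± 0.19 in GL2 siRNA cells (adjusted p 1.81e-08, 5.25e-12, 8.17e-07 and 2.47e-10). The CDT1 less GL2 difference of the changes, -1.04 ± 0.29, was not called (adjusted p 0.0707). It was called without CDT1 siRNA with MLN4924, replicate 2 (-1.40), or p53 siRNA with daunorubicin, replicate 1 (-1.04), and shrank to -0.56 without CDT1 siRNA with MLN4924, replicate 1. The promoter printed above for SERPINH1 is the one that holds both heat shock pairs.

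SERPINI1, neuroserpin, an inhibitor of tissue plasminogen activator known from the nervous system, had weaker signals. With MLN4924 it was 4.74, 4.19 and 3.83 in p53, 3.76, 3.51 and 4.37 in CDT1, 4.10, 3.84 and 3.25 in BRCA1 and 3.75, 4.05 and 4.14 in GL2 siRNA cells. Under DMSO the arrays ran from 4.83 to 5.10 (first set) and 5.15 to 5.63 (second set) in p53, 5.91 to 6.08 in CDT1, 4.92 to 5.22 in BRCA1, and 4.48 to 4.76 and 4.78 to 5.08 in GL2 siRNA cells. In each comparison the MLN4924 arrays lay below their DMSO arrays. The changes were -0.93 ± 0.18, -2.10 ± 0.21, -1.37 ± 0.21 and -0.80 ± 0.18 in the same order of siRNAs, all called. The change under CDT1 siRNA less that in GL2 cells was -1.29 ± 0.27 (adjusted p 0.0111). This difference went with a higher level under DMSO in CDT1 siRNA cells. With MLN4924 the arrays of the 2 siRNAs overlapped, at 3.51 to 4.37 under CDT1 siRNA and 3.75 to 4.14 in GL2 cells. In that test 1.22% of all genes were called, 0.521% higher and 0.698% lower (244 and 132 genes as deposited), and SERPINI1 was the 1 serpin among them. With a pseudocount of 16 the p53 and GL2 changes shrank to -0.46 and -0.39 and were not called.

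Among the other secreted members the falls were smaller. SERPINF1 encodes pigment epithelium-derived factor, which blocks vessel growth and inhibits no protease. It had 5.88, 5.76 and 5.25 with MLN4924 in p53 siRNA cells, against 6.70, 6.71 and 6.68 in the first and 6.75, 7.12 and 6.87 in the second DMSO set, a change of -1.17 ± 0.16. In GL2 cells it had 5.41, 5.65 and 5.39 with MLN4924, against 6.44, 6.36 and 6.53 in the first and 6.59, 6.58 and 6.52 in the second DMSO set, a change of -1.02 ± 0.16. Both pairs of groups lay apart and both changes were called. Under CDT1 siRNA SERPINF1 had 5.85, 5.31 and 5.98 with MLN4924, against 6.23, 5.99 and 6.40 with DMSO, and the change of -0.49 ± 0.18 was not called. Without CDT1 siRNA with MLN4924, replicate 3, it was -0.63 and called, and without replicate 2 it was -0.29. Under BRCA1 siRNA it had 5.85, 5.41 and 6.05 with MLN4924, against 6.37, 6.37 and 6.23 with DMSO, and the change of -0.55 ± 0.18 was not called. Without the doubted libraries it was -0.69 and called. It was likewise called without BRCA1 siRNA with DMSO, replicate 3 (-0.60), or with MLN4924, replicate 1 (-0.59), and shrank to -0.37 without MLN4924, replicate 2.

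SERPIND1 encodes heparin cofactor II, an inhibitor of thrombin. Its values divided along the libraries whose BRCA1 signal went against their labels. In BRCA1 siRNA cells it was 7.02, 6.97 and 5.46 with MLN4924, against 7.94, 7.85 and 7.90 with DMSO. For GL2 cells the signal was 5.44, 5.72 and 7.23 with MLN4924, against 6.60, 6.78 and 6.61 in the first and 6.46, 6.24 and 6.68 in the second DMSO set. Replicate 3 was the low array in the first of these MLN4924 groups and the high array in the other. SERPIND1 changed by -1.41 ± 0.32 under BRCA1 siRNA (adjusted p 0.00106), and by -0.44 ± 0.28 in GL2 cells, which was not called. Without the doubted libraries these became -0.90 and -0.99, both called. Without GL2 with MLN4924, replicate 1 instead, the GL2 change was -0.09. In p53 siRNA cells it was 4.22, 4.92 and 5.03 with MLN4924, against 6.20, 6.23 and 5.98 in the first and 6.05, 5.80 and 5.80 in the second DMSO set, a change of -1.28 ± 0.28 that was called. The p53 less GL2 difference of -0.85 ± 0.39 was not called. It ran from -1.19, which was called, without GL2 with MLN4924, replicate 1, to -0.30 without replicate 3, and was -0.30 without the doubted libraries. CDT1 siRNA cells had 6.47, 6.62 and 6.39 with MLN4924, against 6.77, 7.15 and 7.04 with DMSO (-0.50 ± 0.32, not called).

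SERPINE2 encodes protease nexin-1, which inhibits thrombin and urokinase at the cell surface. Its representative probe set had a log2 signal of 12.12 to 13.23 on all 42 arrays. With MLN4924 it had 12.79, 12.57 and 12.85 in p53, 12.40, 12.76 and 12.38 in CDT1, 12.89, 12.80 and 12.48 in BRCA1 and 12.53, 12.49 and 12.71 in GL2 siRNA cells. Under DMSO it had 12.81, 12.58 and 12.61 and 12.59, 12.75 and 12.70 in the p53 sets, 12.68, 12.71 and 12.65 under CDT1, 12.99, 12.70 and 12.82 under BRCA1, and 12.59, 12.64 and 13.23 and 12.62, 12.92 and 13.01 in the GL2 sets. All 4 pairs of groups overlapped, and the changes ran from -0.26 to 0.06 with none called. The 95% interval was -0.20 to 0.33 in p53 and -0.52 to 0.00 in GL2 cells. A further SERPINE2 probe set, with a mean signal of 7.46, correlated with it at r = 0.03 over the 42 arrays, which share their groups. With Nutlin in GL2 cells the further set changed by -1.81 and the representative one by 0.13.

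SERPINA1, alpha-1-antitrypsin, is the main inhibitor of neutrophil elastase. With MLN4924 it had 3.60, 4.49 and 2.72 in p53 siRNA cells, against 4.01, 5.08 and 4.96 in the first and 4.95, 5.49 and 4.90 in the second DMSO set. GL2 cells had 5.05, 5.91 and 5.53 with MLN4924, against 5.83, 5.19 and 4.60 in the first and 5.49, 5.54 and 4.79 in the second DMSO set. The p53 siRNA groups overlapped slightly and the GL2 groups fully. SERPINA1 fell by 2.46-fold in p53 siRNA cells (-1.30 ± 0.33, adjusted p 0.00217) and was not called in GL2 cells (0.26 ± 0.33). Without p53 siRNA with MLN4924, replicate 3, the first of these was -0.85 and not called. SERPINA1 had 4.49, 4.69 and 3.70 with MLN4924, against 5.54, 5.85 and 4.92 with DMSO, under CDT1 siRNA (-1.15 ± 0.39), and 4.91, 5.15 and 4.05 with MLN4924, against 5.78, 6.43 and 6.14 with DMSO, under BRCA1 siRNA (-1.41 ± 0.39). Both were called, but the BRCA1 call was lost without BRCA1 siRNA with MLN4924, replicate 3 (-1.09). The CDT1 call was lost without CDT1 siRNA with DMSO, replicate 1 (-1.10) or 2 (-0.94), or with MLN4924, replicate 1 (-1.25) or 3 (-0.85). Another SERPINA1 probe set, r = 0.85 with the first over the 42 arrays, gave -3.54 in p53, -1.23 in CDT1, -1.56 in BRCA1 and -1.02 in GL2 siRNA cells. The other SERPINA1 probe sets followed less closely (r = 0.37 and 0.24), and with the mean of all 4 the CDT1 and BRCA1 changes were -0.45 and -0.69 and not called. With a pseudocount of 16 the p53 change was -0.52 and not called.

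A pair of low-signal genes of the same locus carried calls in GL2 cells that were lost without any of several arrays. SERPINA6, corticosteroid-binding globulin, a hormone carrier, had 2.48, 2.44 and 3.08 with MLN4924, against 4.79, 4.0 and 4.37 with DMSO, under BRCA1 siRNA (-1.72 ± 0.47, called). In GL2 cells it had 2.80, 2.76 and 2.24 with MLN4924, against 4.50, 4.18 and 4.39 in the first and 4.02, 2.17 and 2.94 in the second DMSO set, which overlapped (-1.10 ± 0.41, called). Without the doubted libraries the GL2 value was -0.92 and not called. That call was also lost without replicate 1 (-1.20) or 2 (-1.18) of GL2 with MLN4924, replicate 1 (-1.07) or 3 (-1.09) of the first DMSO set, or replicate 1 (-0.86) or 3 (-1.13) of the second. Against the second DMSO set alone the GL2 change was -0.44 and not called. SERPINA9, centerin, known from germinal centre B cells, had 5.41, 5.70 and 5.63 with MLN4924 in GL2 cells, against 4.43, 5.25 and 5.53 in the first and 4.33, 4.17 and 3.94 in the second DMSO set. These groups overlapped, and the change of 0.97 ± 0.35 was called. It was not called without the doubted libraries (0.95), nor without replicate 1 (1.06) or 2 (0.91) of GL2 with MLN4924, replicate 1 of the first DMSO set (0.81) or replicate 3 of the second (0.92). Against the first DMSO set alone it was 0.51 and not called. In p53, CDT1 and BRCA1 siRNA cells SERPINA9 changed by 0.83 ± 0.35, 0.79 ± 0.40 and 0.80 ± 0.40, none of them called.

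**Figure D2:**
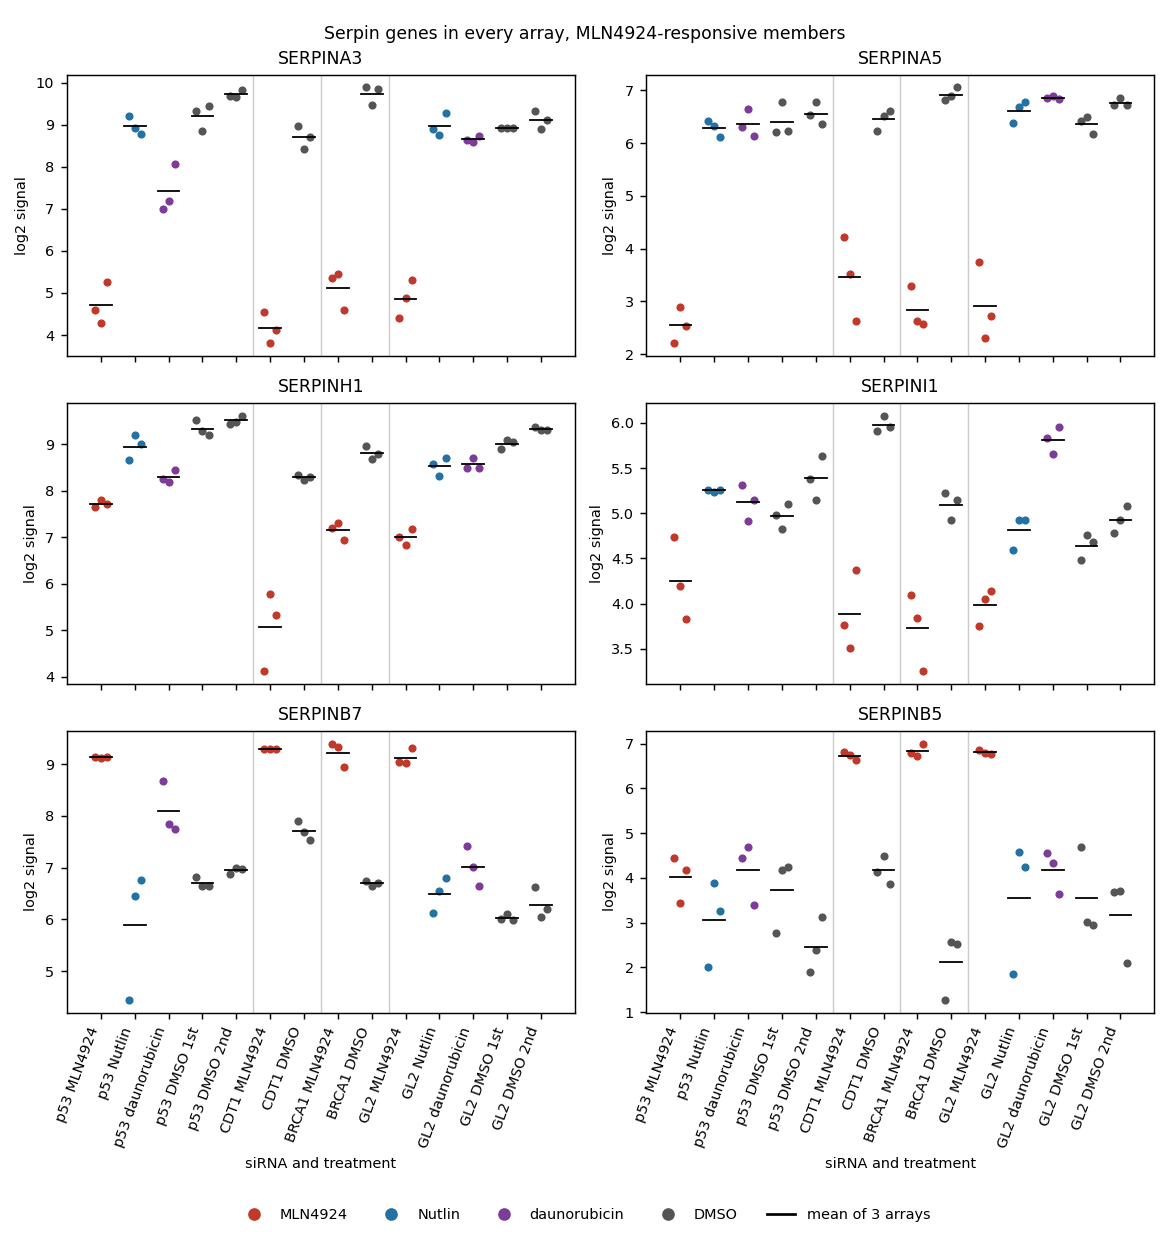
Each point is the log2 signal of 1 array, coloured by treatment, and each bar the mean of 3 arrays, for 6 serpins over the 14 groups. On the 12 MLN4924 arrays SERPINA3 lies at 3.81 to 5.44, SERPINA5 at 2.21 to 4.22, SERPINH1 at 4.11 to 7.80 and SERPINB7 at 8.94 to 9.39, apart from the other 30 arrays.

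SERPINB7, megsin, is an intracellular member known from kidney mesangial cells and skin. Its signal with MLN4924 was 9.13, 9.12 and 9.14 in p53 siRNA cells, against 6.82, 6.64 and 6.64 in the first and 6.87, 6.99 and 6.98 in the second DMSO set. In CDT1 siRNA cells it was 9.29, 9.29 and 9.30 with MLN4924, against 7.91, 7.69 and 7.54 with DMSO. BRCA1 siRNA cells gave 9.39, 9.33 and 8.94 with MLN4924, against 6.74, 6.65 and 6.70 with DMSO. All these groups lay apart, and the MLN4924 arrays of the 4 siRNAs shared a narrow range of 8.94 to 9.39. GL2 cells gave 9.05, 9.02 and 9.31 with MLN4924, against 6.01, 6.10 and 5.99 in the first and 6.62, 6.04 and 6.20 in the second DMSO set. The rise was 2.31 ± 0.28 in p53, 1.58 ± 0.33 in CDT1, 2.52 ± 0.33 in BRCA1 and 2.97 ± 0.28 in GL2 siRNA cells, or 4.96-, 2.99-, 5.74- and 7.81-fold. Adjusted p was 9.19e-08, 0.000769, 5.64e-07 and 1.25e-09. The smaller value under CDT1 siRNA went with a higher level under DMSO, and its difference from GL2 cells was not called (-1.38 ± 0.43, adjusted p 0.115).

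SERPINB5 encodes maspin, a serpin that inhibits no protease and is studied as a tumour suppressor of breast epithelium. With MLN4924 it was 4.44, 3.45 and 4.18 in p53 siRNA cells, against 2.78, 4.17 and 4.24 in the first and 1.89, 2.38 and 3.12 in the second DMSO set. Under CDT1 siRNA it was 6.81, 6.74 and 6.64 with MLN4924, against 4.13, 4.50 and 3.87 with DMSO. Under BRCA1 siRNA it was 6.78, 6.73 and 6.99 with MLN4924, against 1.28, 2.57 and 2.52 with DMSO. The CDT1 and BRCA1 groups lay apart and the p53 groups overlapped. GL2 cells had 6.85, 6.79 and 6.77 with MLN4924, against 4.68, 3.01 and 2.94 in the first and 3.68, 3.70 and 2.11 in the second DMSO set, again apart. The 9 MLN4924 arrays of CDT1, BRCA1 and GL2 siRNA cells thus lay at 6.64 to 6.99 and the other 33 arrays at 1.28 to 4.70. The change was 0.92 ± 0.51 in p53 siRNA cells, which was not called (adjusted p 0.164), 2.57 ± 0.58 under CDT1 siRNA, 4.71 ± 0.58 under BRCA1 siRNA and 3.45 ± 0.51 in GL2 cells (adjusted p 0.00209, 2.6e-07 and 3e-06). Against the second DMSO set alone, the p53 siRNA change was 1.56 and called. The fold is imprecise because all DMSO groups were under the median of all signals. A second SERPINB5 probe set, with a mean signal of 1.43, did not follow the first (r = -0.05 over the 42 arrays), and with the mean of both the GL2 and CDT1 changes were 1.49 and 1.33 and not called.

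SERPINB1 inhibits neutrophil elastase, cathepsin G and proteinase 3 inside cells. It had 6.67, 6.41 and 6.89 with MLN4924 in p53 siRNA cells, against 7.81, 7.76 and 7.78 in the first and 7.79, 7.43 and 7.84 in the second DMSO set. In CDT1 siRNA cells it had 7.14, 7.55 and 7.37 with MLN4924, against 7.95, 8.04 and 8.04 with DMSO, and in BRCA1 siRNA cells 7.97, 7.55 and 7.44 with MLN4924, against 8.42, 8.34 and 8.37 with DMSO. These 3 comparisons lay apart and were called at -1.08 ± 0.14, -0.65 ± 0.16 and -0.72 ± 0.16. In GL2 cells SERPINB1 had 7.37, 7.19 and 7.81 with MLN4924, against 7.72, 7.86 and 7.88 in the first and 7.91, 7.94 and 7.82 in the second DMSO set. Those groups overlapped, and the change of -0.40 ± 0.14 did not reach 1.5-fold. The CDT1 call was lost without CDT1 siRNA with MLN4924, replicate 1 (-0.55). Of its other probe sets, a pair with r = 0.94 and 0.87 to the first gave -1.09 and -1.09 in p53 siRNA cells and -0.22 and -0.24 in GL2 cells.

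**Figure D3:**
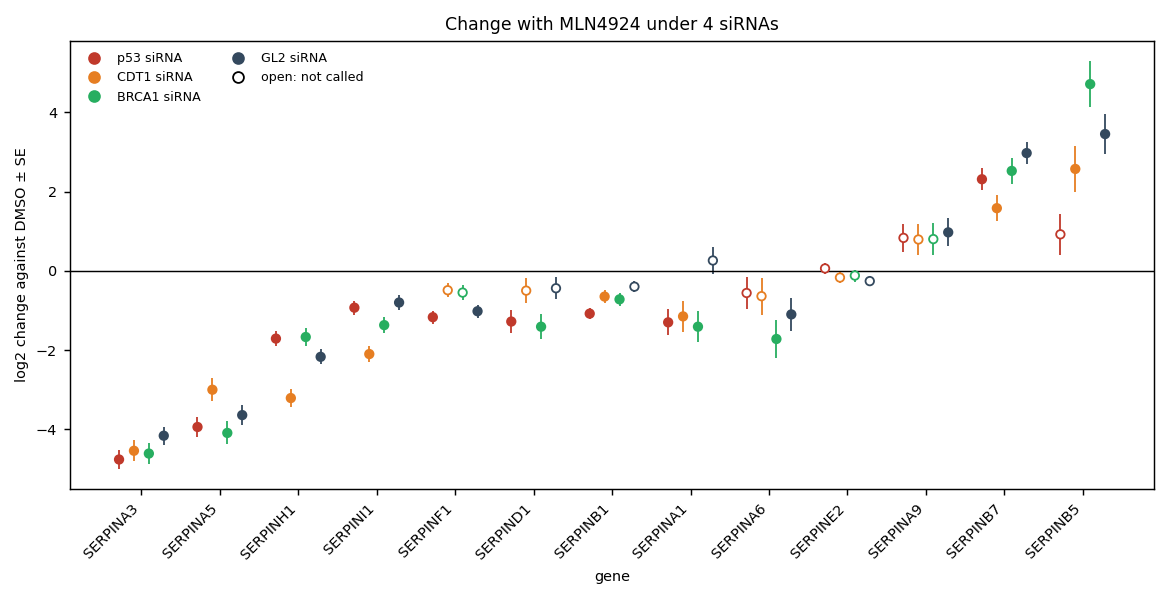
Points give the log2 change with MLN4924 against DMSO and bars its standard error for 13 serpins, with p53, CDT1, BRCA1 and GL2 siRNA from left to right within each gene. Filled points passed the call. SERPINA3 runs from -4.76 to -4.16, SERPINB7 from 1.58 to 2.97, and SERPINB5 is open in p53 siRNA cells at 0.92.

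Nutlin, which raises p53 without DNA damage, moved few serpins. In p53 siRNA cells 0 of 31 were called by limma, 2 had an unadjusted p under 0.05, and 0.0556% of all genes were called, 0.0405% higher and 0.0152% lower (15 and 2 genes as deposited). In GL2 cells 1 was higher and 1 lower (6.45%), where 16.4% of all genes were called, 6.71% higher and 9.67% lower. With the scaling as deposited, 2 serpins were higher and 1 lower among 1879 higher and 1463 lower genes, and after quantile normalization 2 and 2. The median change over the 31 serpins was -0.19 in p53 siRNA and 0.17 in GL2 cells, against -0.06 and 0.01 over all genes. SERPINA1 was the higher gene. Its signal was 5.25, 4.29 and 4.72 with Nutlin in p53 siRNA cells, against 4.01, 5.08 and 4.96 in the first DMSO set. For GL2 cells the signal was 7.29, 7.60 and 7.41 with Nutlin, against 5.83, 5.19 and 4.60 in the first DMSO set, with no overlap. SERPINA1 changed by 0.07 ± 0.39 in p53 siRNA cells and by 2.23 ± 0.39 in GL2 cells, a 4.68-fold rise (adjusted p 4.28e-05). The p53 less GL2 difference of -2.16 ± 0.55 was called (adjusted p 0.00736), 1 of 31 serpins (3.23%) where 10.0% of all genes were called, 5.30% higher and 4.72% lower. The other probe set that follows it rose by 1.89 in GL2 cells. The lower gene in GL2 cells was SERPINC1, antithrombin, whose group means were under the median of all signals in every group. SERPINC1 had 1.09, 1.20 and 2.69 with Nutlin in GL2 cells, against 4.03, 3.39 and 3.73 in the first DMSO set (-2.06 ± 0.56), but the second GL2 DMSO set lay at 1.58 to 2.57. With both DMSO sets as control its change was -1.26 and not called. SERPINF1 changed by -0.58 ± 0.18 with Nutlin in GL2 cells and was not called. It was called without replicate 1 (-0.69) or 3 (-0.67) of GL2 with Nutlin, or replicate 2 of the first DMSO set (-0.62), and shrank to -0.37 without replicate 2 of GL2 with Nutlin.

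Daunorubicin raised serpins of several clades in GL2 cells. There 5 of 31 were called higher and 0 lower (16.1%), against 16.4% of all genes, of which 6.49% were higher and 9.93% lower. As deposited, 2055 genes were higher and 1352 lower, the opposite balance, with 5 serpins higher and 0 lower. The 5 were SERPINA1, SERPINI1, SERPIND1, SERPINB1 and SERPINB7. In p53 siRNA cells 1 was higher and 2 lower (9.68%), against 12.0% of all genes, 5.67% higher and 6.36% lower, or 1465 higher and 983 lower as deposited. After quantile normalization the p53 siRNA split was 2 higher and 2 lower. SERPINB7 was the higher gene there, and SERPINA3 and SERPINH1 the lower ones. The median change over the 31 serpins was -0.02 in p53 siRNA and 0.16 in GL2 cells, against 0.01 and -0.01 over all genes.

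SERPINA1 had 5.67, 5.56 and 5.80 with daunorubicin in p53 siRNA cells, against 4.01, 5.08 and 4.96 in the first DMSO set. In GL2 cells it had 7.81, 7.58 and 7.25 with daunorubicin, against 5.83, 5.19 and 4.60 in the first DMSO set. Both pairs of groups lay apart. The change was 1.0 ± 0.39 in p53 siRNA cells, not called (adjusted p 0.0723), and 2.34 ± 0.39 in GL2 cells (adjusted p 2.08e-05). Their difference, -1.35 ± 0.55, was not called (adjusted p 0.0934). Without the first DMSO set's replicate 1 of p53 siRNA, or of GL2, it was -1.68 or -1.66 and called. Over all arrays left out in turn it ran from -1.68 to -1.04.

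SERPINB1 had 8.11, 7.84 and 7.86 with daunorubicin in p53 siRNA cells, against 7.81, 7.76 and 7.78 in the first DMSO set. GL2 cells had 8.88, 8.77 and 8.84 with daunorubicin, against 7.72, 7.86 and 7.88 in the first DMSO set. Its change of 1.01 ± 0.16 in GL2 cells was called (adjusted p 1.25e-05), that of 0.16 ± 0.16 in p53 siRNA cells was not, and the difference of -0.85 ± 0.23 was called (adjusted p 0.0082). SERPINI1 had 5.31, 4.91 and 5.15 with daunorubicin in p53 siRNA cells, against 4.98, 4.83 and 5.10 with DMSO. GL2 cells had 5.83, 5.66 and 5.95 with daunorubicin, against 4.48, 4.76 and 4.68 with DMSO. SERPINI1 rose by 1.17 ± 0.21 in GL2 cells (adjusted p 4.95e-05) and changed by 0.15 ± 0.21 in p53 siRNA cells, a difference of -1.02 ± 0.29 that was called (adjusted p 0.0132). The same gene was called lower with MLN4924, so SERPINI1 moved in opposite directions with daunorubicin and MLN4924 in GL2 cells.

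SERPINA3 under daunorubicin was lower where p53 had been depleted. In p53 siRNA cells it had 7.0, 7.18 and 8.07 with daunorubicin, against 9.32, 8.85 and 9.45 in the first DMSO set. In GL2 cells it had 8.63, 8.60 and 8.74 with daunorubicin, against 8.92, 8.93 and 8.93 in the first DMSO set. All 6 daunorubicin arrays lay below the DMSO arrays of their siRNA. SERPINA3 changed by -1.79 ± 0.27 in p53 siRNA cells (adjusted p 1.63e-05) and by -0.27 ± 0.27 in GL2 cells, and the difference of -1.52 ± 0.38 was called (adjusted p 0.0046). The lowest of these arrays, p53 siRNA with daunorubicin, replicate 1, is the one with the low actin ratio, and without the doubted libraries the change was -1.58 and the difference -1.31, both called. SERPINH1 had 8.25, 8.19 and 8.44 with daunorubicin in p53 siRNA cells, against 9.51, 9.28 and 9.19 with DMSO (-1.03 ± 0.22, called), and 8.49, 8.70 and 8.49 with daunorubicin in GL2 cells, against 8.90, 9.08 and 9.05 with DMSO (-0.45 ± 0.22, not called). SERPINF1 changed by -0.48 ± 0.18 with daunorubicin in p53 siRNA cells and was not called. Without p53 siRNA with daunorubicin, replicate 1, it was -0.59 and called, and without replicate 3 it was -0.33.

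SERPINB7 rose under daunorubicin with either siRNA. It had 8.67, 7.84 and 7.75 with daunorubicin in p53 siRNA cells, against 6.82, 6.64 and 6.64 with DMSO (1.39 ± 0.33). GL2 cells had 7.42, 7.01 and 6.64 with daunorubicin, against 6.01, 6.10 and 5.99 with DMSO (0.99 ± 0.33). Neither pair of groups overlapped. The GL2 call was lost without replicate 1 (0.79) or 2 (0.99) of GL2 with daunorubicin, or without replicate 1 (0.98), 2 (1.02) or 3 (0.97) of the first DMSO set. SERPIND1 had 6.39, 6.18 and 6.45 with daunorubicin in p53 siRNA cells, against 6.20, 6.23 and 5.98 with DMSO (0.20 ± 0.32, not called). In GL2 cells it had 7.75, 7.75 and 7.66 with daunorubicin, against 6.60, 6.78 and 6.61 with DMSO (1.06 ± 0.32, called). With Nutlin it had 5.69, 5.95 and 6.14 in p53 siRNA cells and 7.25, 7.33 and 7.76 in GL2 cells, and the GL2 change of 0.78 ± 0.32 was not called. The doubted libraries are not in that Nutlin comparison but enter the spread that the fit shares. Without them the change kept its size of 0.78 and was called, and the p53 less GL2 differences of -0.99 for Nutlin and -0.88 for daunorubicin were called.

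**Figure D4:**
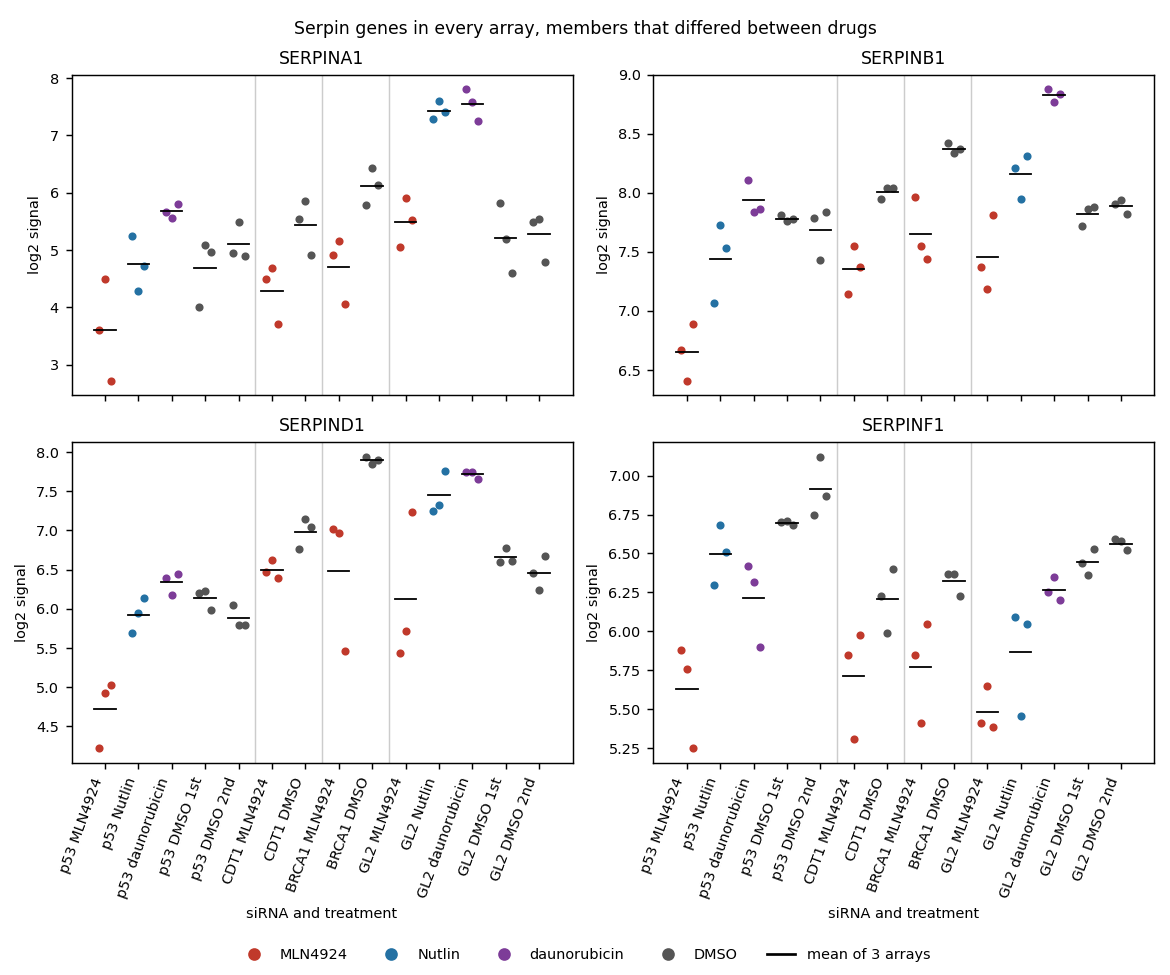
Each point is the log2 signal of 1 array, coloured by treatment, and each bar the mean of 3 arrays, for SERPINA1, SERPINB1, SERPIND1 and SERPINF1 over the 14 groups. SERPINA1 lies at 7.25 to 7.81 on the Nutlin and daunorubicin arrays of GL2 cells and at 4.6 to 5.83 in the GL2 DMSO sets.

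The dependence of the MLN4924 changes on p53 was tested as the change in p53 siRNA cells less that in GL2 cells. Of 31 serpins, 0 were higher and 3 lower (9.68%), where 10.4% of all genes were called, 6.96% higher and 3.41% lower. As deposited, 653 genes were higher and 1421 lower, the opposite balance, with the serpin counts at 0 and 3. SERPINB5 had a difference of -2.53 ± 0.72 (adjusted p 0.0172), from values of 4.44, 3.45 and 4.18 with MLN4924 in p53 siRNA cells and 6.85, 6.79 and 6.77 in GL2 cells. With the second DMSO set alone as control this was -2.09 and not called, and without p53 siRNA with MLN4924, replicate 2, it was -2.24 and not called. With the mean of both SERPINB5 probe sets it was -0.82 and not called. SERPINA1 had a difference of -1.55 ± 0.47 (adjusted p 0.0262). That call was lost without replicate 2 (-1.35) or 3 (-1.54) of GL2 with MLN4924, or without replicate 1 (-1.55) or 3 (-1.11) of p53 siRNA with MLN4924. It was also lost with a pseudocount of 16 (-0.72), with the first DMSO set as control (-1.37) and in a fit of only the groups compared (-1.55). SERPINB1 had -0.68 ± 0.20 (adjusted p 0.0192), and was not called without the library labelled GL2 with MLN4924, replicate 3 (-0.51), or p53 siRNA with MLN4924, replicate 2 (-0.56). All 3 of these genes thus stood lower with MLN4924 when p53 was depleted, but each call depended on single arrays. For daunorubicin the same test called 0 serpins higher and 3 lower (9.68%, against 15.3% of all genes, 9.65% higher and 5.69% lower). Those were SERPINA3, SERPINI1 and SERPINB1, whose values are given above.

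**Figure D5:**
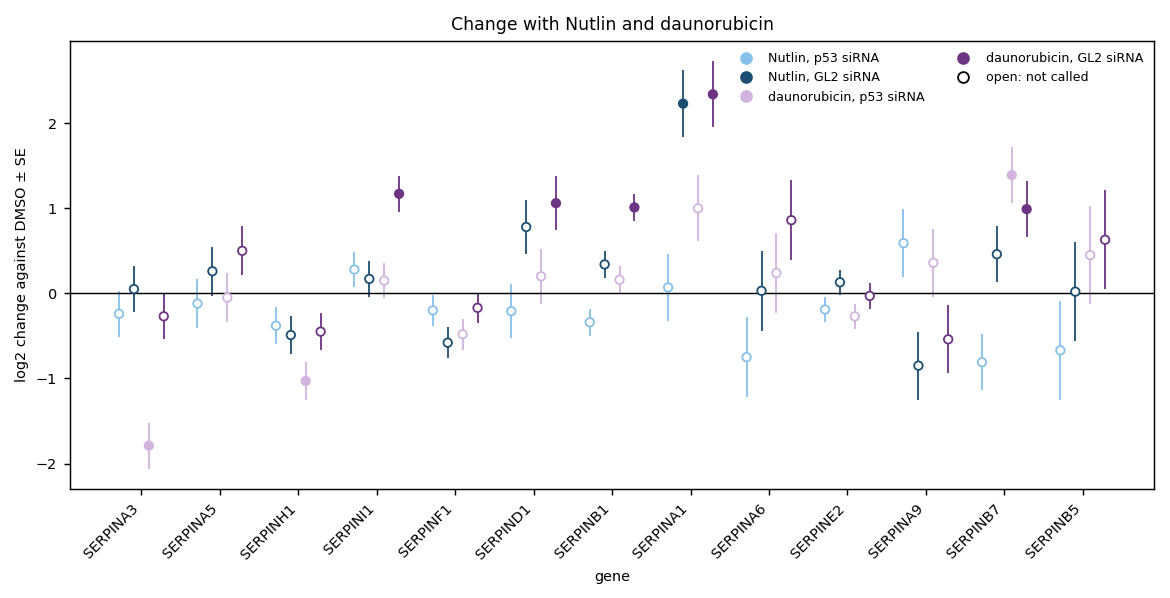
Points give the log2 change with Nutlin or daunorubicin against the first DMSO set and bars its standard error for 13 serpins, with p53 siRNA left of GL2 siRNA for each drug. Filled points passed the call. SERPINA1 is filled in GL2 cells at 2.23 with Nutlin and 2.34 with daunorubicin, and open in p53 siRNA cells at 0.07 and 1.0.

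The siRNAs alone were compared under DMSO with both GL2 DMSO sets. With p53 siRNA 0 of 31 were called by limma, 6 had an unadjusted p under 0.05, and 3.98% of all genes were called, 1.71% higher and 2.27% lower. SERPINB7 was not called, although all its DMSO arrays of p53 siRNA, listed above, lay higher than all those of GL2. As deposited, 1 serpin was called higher, among 436 genes higher and 382 lower. The median serpin changed by -0.04 with p53, -0.01 with CDT1 and 0.08 with BRCA1 siRNA, against -0.01, -0.03 and -0.05 over all genes. CDT1 siRNA had 2 higher and 1 lower (9.68%, against 6.30% of all genes, 2.72% higher and 3.58% lower). SERPINB7 had 7.91, 7.69 and 7.54 with CDT1 siRNA, against 6.01, 6.10 and 5.99 in the first and 6.62, 6.04 and 6.20 in the second GL2 set (1.55 ± 0.28). SERPINI1 had 5.91, 6.08 and 5.95 with CDT1 siRNA, against 4.48, 4.76 and 4.68 in the first and 4.78, 4.92 and 5.08 in the second GL2 set (1.19 ± 0.18). SERPINH1 had 8.34, 8.23 and 8.29 with CDT1 siRNA, against 8.90, 9.08 and 9.05 in the first and 9.37, 9.30 and 9.30 in the second GL2 set (-0.88 ± 0.19). All 3 lay apart from GL2. SERPINH1 and SERPINB7 moved in the same direction as with MLN4924, whereas SERPINI1 moved in the opposite one. The CDT1 siRNA and MLN4924 comparisons in GL2 cells share their DMSO control arrays.

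BRCA1 siRNA under DMSO had 2 higher and 1 lower (9.68%, against 8.48% of all genes, 4.11% higher and 4.37% lower). With the scaling as deposited, 2 were higher and 0 lower, and after quantile normalization 3 and 1. SERPIND1 had 7.94, 7.85 and 7.90 with BRCA1 siRNA, against 6.60, 6.78 and 6.61 in the first and 6.46, 6.24 and 6.68 in the second GL2 set (1.33 ± 0.28, adjusted p 0.00101), with no overlap. SERPINA3 had 9.89, 9.46 and 9.84 with BRCA1 siRNA, against 8.92, 8.93 and 8.93 in the first and 9.33, 8.90 and 9.11 in the second GL2 set (0.71 ± 0.23, adjusted p 0.036). That call was lost without any of replicates 1, 2 and 3 of the first GL2 DMSO set (0.71 each) or replicate 2 (0.66) or 3 (0.71) of the second. It was also lost without replicate 1 (0.63) or 3 (0.66) of BRCA1 siRNA with DMSO. SERPINA4 had 4.13, 4.65 and 5.53 with BRCA1 siRNA, against 5.75, 5.62 and 5.65 in the first and 5.33, 5.25 and 5.19 in the second GL2 set, which overlapped (-0.70 ± 0.22). Its call was lost without replicate 1 (-0.38) or 2 (-0.63) of BRCA1 siRNA with DMSO, or replicate 1 of either GL2 DMSO set (-0.68 each). SERPINA1 (0.88 ± 0.33) and SERPINB5 (-1.23 ± 0.51) were not called, but SERPINA1 was without replicate 1 of the first GL2 DMSO set (1.03) and SERPINB5 without replicate 3 of the second (-1.49). Over all arrays left out in turn they ran from 0.72 to 1.05 and from -1.49 to -0.81. For the MLN4924 change of BRCA1 less GL2 siRNA, 0 of 31 serpins were called by limma, 3 had an unadjusted p under 0.05, and 1.86% of all genes were called, 0.632% higher and 1.23% lower. Replicate 3 of both MLN4924 groups in this test is a doubted library, so these counts are uncertain. Without the doubted libraries SERPIND1 went from -0.98 to 0.08 in it, called in neither fit.

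MLN4924 was then set against the other drugs in GL2 cells, as the difference of their changes from DMSO. These comparisons share the first GL2 DMSO set and the MLN4924 arrays. The MLN4924 change is taken from both DMSO sets and the other drug's change from the first set alone. A gap between the DMSO sets therefore enters the difference. Against Nutlin 4 serpins were higher and 7 lower of 31 (35.5%, against 25.7% of all genes, 17.0% higher and 8.69% lower). Against daunorubicin 3 were higher and 9 lower (38.7%, against 27.2% of all genes, 18.2% higher and 9.03% lower). With the scaling as deposited the balance over all genes turned, to 1804 higher and 3188 lower against Nutlin and 1745 and 3428 against daunorubicin, with 4 serpins higher and 11 lower and 3 and 10. SERPINA3 was lower with MLN4924, with a difference of -4.21 ± 0.30 from Nutlin and -3.89 ± 0.30 from daunorubicin. SERPINA5 differed by -3.90 ± 0.33 and -4.15 ± 0.33, and SERPINH1 by -1.68 ± 0.25 and -1.72 ± 0.25. SERPINA1, which rose with Nutlin and with daunorubicin, differed by -1.97 ± 0.43 and -2.09 ± 0.43. SERPINB7 was higher by 2.50 ± 0.37 and 1.98 ± 0.37, and SERPINB5 by 3.43 ± 0.65 and 2.82 ± 0.65. With the mean of both its probe sets SERPINB5 differed by 1.37 and 1.0 and was not called. SERPINA9 was higher by 1.82 ± 0.45 and 1.51 ± 0.45. The call against daunorubicin was lost without GL2 with daunorubicin, replicate 3 (1.25).

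Further members also differed between drugs. SERPINB1 was lower with MLN4924, with a difference of -0.74 ± 0.18 from Nutlin and -1.41 ± 0.18 from daunorubicin. SERPINI1 differed by -0.98 ± 0.23 and -1.98 ± 0.23, and SERPIND1 by -1.22 ± 0.36 and -1.49 ± 0.36. Without GL2 with MLN4924, replicate 1, the SERPIND1 value against Nutlin was -0.87 and not called, and without the doubted libraries it was -1.77 and called. SERPINF1 (-0.84 ± 0.21) and SERPINA6 (-1.96 ± 0.52) were lower against daunorubicin. SERPINF1 (-0.44 ± 0.21) and SERPINA6 (-1.13 ± 0.52) were not called against Nutlin, though SERPINF1 was without GL2 with Nutlin, replicate 2 (-0.64), and was -0.33 without replicate 1. SERPINC1 was higher against Nutlin by 2.23 ± 0.63, from arrays all under the median signal. Its GL2 DMSO sets, given above, lay apart from each other.

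In none of the 18 comparisons were the other 17 serpins called. Their changes ran from -1.78 to 2.01 over the 11 comparisons of a drug with DMSO or of an siRNA with GL2. Clade A contributed SERPINA2, the thyroxine carrier SERPINA7, the factor Xa inhibitor SERPINA10 and vaspin (SERPINA12). Clade B contributed the squamous cell carcinoma antigens SERPINB3 and SERPINB4, the furin inhibitor SERPINB8, the granzyme B inhibitor SERPINB9 with its pseudogene SERPINB9P1, and SERPINB10, SERPINB11, SERPINB12 and SERPINB13. The rest were SERPINE2, the plasmin inhibitor SERPINF2, the C1 inhibitor SERPING1 and SERPINI2. Of these, 11 were under the median of all signals in every group, and SERPINA12, SERPINB3, SERPINB9 and SERPINB9P1 reached it in some. SERPINB8, at or above it in every group like SERPINE2, had 7.09 to 7.87 on the 42 arrays. It was higher by 0.29 ± 0.08 with MLN4924 in p53 siRNA cells and differed by -0.24 ± 0.08 in GL2 cells, and the difference of 0.54 ± 0.11 had an adjusted p of 0.000795 at a size under 1.5-fold.

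The clade B members read here on chromosome 18 lie in the order SERPINB5, SERPINB12, SERPINB13, SERPINB4, SERPINB3, SERPINB11, SERPINB7, SERPINB10 and SERPINB8. Of these 9 only SERPINB5 and SERPINB7 were called in any comparison run here. SERPINB10 and SERPINB11, the nearest of these 9 on either side of SERPINB7, were not. The genes that serpins act on were read from lists of their proteases, receptors, collagen partners and fellow inhibitors. Of 53 measured target proteases, 0 were called higher and 2 lower with MLN4924 in p53 siRNA cells and 0 higher and 1 lower in GL2 cells (3.77% and 1.89%, against 25.4% and 17.2% of all genes). PLAT, tissue plasminogen activator and a target of SERPINI1, changed with MLN4924 by -0.88 ± 0.25 in p53 and -1.55 ± 0.29 in BRCA1 siRNA cells. It was not called with MLN4924 in CDT1 siRNA or GL2 cells. BRCA1 siRNA under DMSO raised it by 1.81 ± 0.25. In GL2 cells PLAT rose by 1.19 ± 0.29 with Nutlin and by 1.26 ± 0.29 with daunorubicin. Under CDT1 siRNA 0 target proteases were higher and 1 lower with MLN4924, and under BRCA1 siRNA 0 and 4 (1.89% and 7.55%, against 10.6% and 16.9%). In GL2 cells 2 were higher with Nutlin and 1 with daunorubicin (3.77% and 1.89%, against 16.4% of all genes for each drug).

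More of the receptors and cofactors were called. Of 22 measured, 5 were called higher and 3 lower with MLN4924 in p53 siRNA cells and 6 higher and 2 lower in GL2 cells (36.4% each, against 25.4% and 17.2% of all genes). PLAUR, the urokinase receptor, rose by 1.72 ± 0.09 in p53 siRNA and 1.27 ± 0.09 in GL2 cells. ITGB3, an integrin subunit of the vitronectin receptor, fell by 1.83 and 2.26 on the log2 scale in the same order. Under CDT1 and under BRCA1 siRNA 7 receptors and cofactors were higher and 2 lower with MLN4924 (40.9% each, against 10.6% and 16.9%). In GL2 cells 6 were higher and 1 lower with Nutlin and 4 higher and 2 lower with daunorubicin, and LRP1, the receptor that clears serpin complexes with proteases, rose by 2.42 ± 0.22 and 1.94 ± 0.22. These are 31.8% and 27.3% of the list, against 16.4% of all genes for each drug. Of 26 collagens and collagen-modifying enzymes, 4 were called higher and 2 lower with MLN4924 in p53 siRNA and likewise in GL2 cells (23.1% each, against 25.4% and 17.2% of all genes). There COL6A1 fell by 1.25 and 1.17 on the log2 scale, and COL12A1 rose by 1.40 ± 0.15 and 0.98 ± 0.15. Under CDT1 siRNA 1 was higher and 3 lower, and under BRCA1 siRNA 3 and 3 (15.4% and 23.1%, against 10.6% and 16.9%). Of 30 other protease inhibitors measured, 3 were called higher and 3 lower with MLN4924 in p53 siRNA cells and 3 higher and 2 lower in GL2 cells (20.0% and 16.7%, against 25.4% and 17.2% of all genes). TIMP3, a metalloproteinase inhibitor, fell by 1.19 and 1.05 on the log2 scale. CST7, a cystatin, rose by 2.55 ± 0.53 and 4.36 ± 0.53, with DMSO signals under the median. Under CDT1 siRNA 3 inhibitors were higher and 1 lower, and under BRCA1 siRNA 2 and 3 (13.3% and 16.7%, against 10.6% and 16.9%). In GL2 cells 5 of these inhibitors were higher with Nutlin and 4 with daunorubicin, and 0 lower with either (16.7% and 13.3%, against 16.4% of all genes for each drug).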

How the data were processed

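RNA of A375 cells was measured on 42 Affymetrix arrays, 14 groups of 3. The authors deposited linear signal intensity for 54675 probe sets, and Affymetrix Expression Console is the tool named in the submitters' processing notes. The deposited columns share a trimmed mean of 149.98 (2% trimmed), so they were scaled before deposit. Background correction, summarization and date of hybridization are not given in the sources used here, and the number of arrays limits the precision.

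Signals were put on the log2 scale after 147 values of 0 were raised to 0.1. Control probe sets (62), probe sets with several symbols (1801) and those with none (11715) were left out of the 41097 used, which gave 19775 genes, each by its brightest probe set on average. Arrays were then centred on the median gene, which before that ran from 5.63 to 6.35. limma 3.58.1 (R 4.3.3) fitted all 14 groups together with 28 residual degrees of freedom, and 18 comparisons were taken from the fit. p-values were adjusted by Benjamini-Hochberg over all genes. Counts and figures were made with Python 3.11.15, numpy 2.4.6, pandas 2.3.3 and matplotlib 3.10.9.

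Members, gene lists and controls were chosen with earlier results of these data known. The labels do not tie a DMSO set to a drug. No serpin was among the 113 genes that differed between the DMSO sets. Per-array signals are given for members called in at least 3 of the 18 comparisons that reached the median signal in some group, and for SERPINE2, SERPINB5, SERPINH1, SERPINF1, SERPINA1 and SERPINA3 in any case. Those of SERPINC1 and SERPINA4, called in fewer, were added after their values were seen. Tests are given for members called. From each partner list, up to 5 called genes with the largest statistic in a comparison could be named. No arrays were found to be copies. The closest pair differed by a median of 0.17 on the log2 scale.

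Replicate numbers did not pair the samples. Deviations of same-numbered arrays correlated at a median of 0.00 over 273 pairs, of which 4 exceeded 0.1. On simulated data with known changes for MLN4924 in GL2 cells, 22.4% of 67 genes changed 1.5-fold were called. The share was 55.2% of 67 changed 2-fold and 71.2% of 66 changed 4-fold, and 2 of 19575 unchanged genes were called. In the data 17.2% of all 19775 genes were called there, far more than were changed in the simulation. The adjusted threshold therefore differs, and these shares do not carry over to the data. Alternatives were the deposited scaling, quantile normalization, a pseudocount of 16, the mean of all probe sets, a filter on dim genes, a 2-fold threshold, other DMSO controls, fits of only the groups compared, a trended prior, a replicate block, and leaving out the doubted libraries or each array in turn.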

Additional observations from a re-analysis of the deposited data

Results flagged for a closer look

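In 8 cases the change of a serpin with a drug differed between siRNAs when the difference itself was tested with limma (Benjamini-Hochberg adjusted p over 19775 genes). With MLN4924, the change in p53 siRNA cells less that in GL2 cells was -2.53 for SERPINB5, -1.55 for SERPINA1 and -0.68 for SERPINB1 (adjusted p 0.0172, 0.0262 and 0.0192). With Nutlin it was -2.16 for SERPINA1 (adjusted p 0.00736). With daunorubicin it was -1.52 for SERPINA3, -1.02 for SERPINI1 and -0.85 for SERPINB1 (adjusted p 0.0046, 0.0132 and 0.0082). With MLN4924, the change under CDT1 siRNA less that in GL2 cells was -1.29 for SERPINI1 (adjusted p 0.0111). SERPINI1 was higher under DMSO with CDT1 siRNA than in GL2 cells by 1.19, and its MLN4924 arrays overlapped between these siRNAs.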

How the results depend on the processing

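A value counted as kept where its call and, if called, its direction stayed the same. Values called in neither fit could turn sign. SERPIND1 for MLN4924, BRCA1 less GL2, did so without the doubted libraries (-0.98 and 0.08). Of 168 single-gene values, 154 were kept under the 2-fold threshold, 161 at the deposited scaling, 167 with the trended prior and 156 with a pseudocount of 16. Quantile normalization kept 161, only the groups compared 156 and leaving out the doubted libraries 158. The mean of all probe sets kept 153. The last reversed 2, SERPINE2 with Nutlin in GL2 cells (-0.84) and MLN4924 less Nutlin (1.07), because its further probe set does not follow the first. Counts of serpins called moved as follows. With p53 siRNA under DMSO 1 was called, in place of 0, at the deposited scaling, without dim genes, with only the groups compared, with the trended prior and without the doubted libraries. For Nutlin, p53 less GL2, the count of 1 became 2 after quantile normalization, with all probe sets, a pseudocount of 16, only the groups compared and the trended prior, 3 at the deposited scaling, without dim genes and with both DMSO sets, and 4 without the doubted libraries. For Nutlin in GL2 cells the count of 2 became 4 after quantile normalization and with both DMSO sets. For MLN4924 under CDT1 siRNA 8 became 5 with all probe sets, and for CDT1 less GL2, 1 became 2 without dim genes, with only the groups compared, the trended prior and the first DMSO set. For daunorubicin in p53 siRNA cells 3 became 0 with only the groups compared. For BRCA1 siRNA 3 became 1 at 2-fold and with the second DMSO set. For MLN4924, BRCA1 less GL2, 0 became 1 after quantile normalization, with a pseudocount of 16 and with the replicate block. The cause was not tested.

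The replicate block gained 3 calls among 168 values and lost none, all of SERPINA1 (1.0 for daunorubicin in p53 siRNA cells, 0.88 for BRCA1 siRNA and -1.67 for MLN4924, BRCA1 less GL2). The labels do not say that the numbers pair samples, and 4 of 273 same-number pairs and 7 of 546 other pairs correlated above 0.1.

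Leaving out each array in turn (42 fits) gave 8 to 11 serpins called for MLN4924 in p53, 6 to 9 in CDT1, 10 to 12 in BRCA1 and 7 to 10 in GL2 siRNA cells, 0 to 0 and 2 to 3 for Nutlin in p53 and GL2 cells, and 3 to 4 and 4 to 5 for daunorubicin. It gave 0 to 1 for p53, 3 to 3 for CDT1 and 1 to 3 for BRCA1 siRNA, 1 to 4, 1 to 3 and 3 to 4 for p53 less GL2 with MLN4924, Nutlin and daunorubicin, 1 to 2 and 0 to 0 for CDT1 and BRCA1 less GL2, and 10 to 12 and 11 to 13 for MLN4924 less Nutlin and less daunorubicin. The p53 siRNA count was 1 without p53 siRNA with daunorubicin, replicate 1, or with Nutlin, replicate 1 or 3. The BRCA1 siRNA count was 1 without BRCA1 siRNA with DMSO, replicate 1. The MLN4924 p53 less GL2 count was 1 without GL2 with MLN4924, replicate 3, or p53 siRNA with MLN4924, replicate 2. The CDT1 less GL2 count was 2 without CDT1 siRNA with MLN4924, replicate 2, or p53 siRNA with daunorubicin or Nutlin, replicate 1. SERPINH1 for daunorubicin, p53 less GL2, was called without CDT1 siRNA with MLN4924, replicate 1 (-0.59). Without dim genes 13694 genes and 19 serpins were left. Serpins with signals under the median have wide errors.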
